A study of Mus musculus with 6 samples.

Results

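Untreated fibroblasts from Wrn mutant mouse embryos, whose WRN protein lacks a piece of its helicase domain, were compared with untreated wild type fibroblasts on 2 of the 6 two-colour arrays of the study. The members were the 2 arrays on which RNA of both genotypes was hybridised together, replicates 3 and 4. The other 4 arrays paired untreated cells with cells that had received 0.5 mM hydrogen peroxide for 1 hour and recovered for 24 hours, 2 arrays for each genotype. Their untreated channel, always in Cy3, gave 2 further cultures of each genotype, used here to check the same contrast.

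The cells were primary cultures grown from minced embryos, taken at embryonic day 15 by the labels, from mice of a mixed 129/Sv and Black Swiss background. The mutant mice, called WS in the labels, were homozygous for the deletion, which keeps the reading frame, so they are no full knockout. Neither the sources nor the files say whether cultures shared a mother, an embryo or a passage number, and both dyes of an array carried different embryos as well as different genotypes. Differences between embryos or between cultures and an effect of the mutation therefore cannot be told apart, and p-values measure the spread between these samples. For the ratios this spread was pooled over all 6 arrays, so it comes in part from the arrays with peroxide-treated cells. It is thus not a measure of the spread between mutant and wild type cultures alone. In cultures, fewer cells of a type and less RNA per cell cannot be told apart either.

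WRN is a RecQ family enzyme that unwinds DNA and also trims it as an exonuclease, and it acts in replication, recombination, telomere maintenance and repair. Loss of the human gene causes Werner syndrome, in which features of ageing appear early and cultured fibroblasts stop dividing early. Fibroblasts are the matrix-making cells of connective tissue. In culture they keep part of the Hox code of the body position from which they came, and they respond to stress through programmes such as those driven by ATF4, a transcription factor made when translation is restrained.

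The direction of the ratios had to be settled first. The labels place wild type RNA in Cy5, whereas the study's list of this contrast runs as mutant over wild type with Cy5 over Cy3. Here mutant over wild type was taken as Cy5 over Cy3, against the labels. The check used the untreated Cy3 channels of the other 4 arrays, whose genotypes come from the labels. Over 713 called probes, the log2 ratio of the 2 arrays and the mutant minus wild type difference in Cy3 correlated with r = 0.930, and 99.2% had the same sign. With the labels' dyes, r would be -0.930 and 0.842% would have the same sign. Replicate 3 alone gave r = 0.916 and replicate 4 alone gave r = 0.942. Over all 15855 probes above the intensity threshold r was 0.717. These correlations run across probes, which are not independent replicates. The Wrn gene itself did not settle the direction, because its 4 probes all had a mean log2 intensity below 6, with log2 ratios of 0.36, -0.01, 0.38 and -0.91 (limma adjusted p = 0.16, 0.987, 0.266 and 0.0115). Where these probes lie relative to the deletion is not known, so they check no label.

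Signal was stronger in Cy3 than in Cy5 on both arrays. The share of non-control spots whose signal cleared background was 90.0% and 77.6% for Cy3 of replicates 3 and 4, and 60.7% and 47.5% for Cy5. No array had its dyes exchanged, so a probe's preference for one dye enters every ratio, and the Cy3 comparison, made within 1 dye, is given beside the ratios. The Cy3 levels had a high floor, with the lowest 1% of values below 5.83 on the log2 scale, which shortens differences of dim genes. Of 15 fibroblast markers measured, collagens and vimentin among them, 13 lay above a mean log2 intensity of 6, with a median log2 ratio of 0.93. Of the 9 with 2 arrays 7 were above 0 on both and 0 below, and 1, Dcn, passed the test described next. Over the 9 cartilage markers above that intensity the median was -0.99, and over the 4 bone markers -1.06, with 0 called in either list. With dimmer members included, the median was -0.19 over 17 cartilage markers and 0.04 over 13 bone markers. Of 21 macrophage markers 3 exceeded that level, of 17 endothelial markers 3, and of 9 Y-linked genes 0. Xist, on the X chromosome, had -0.98 and -1.60 by its probes above that level (limma adjusted p = 0.0134 and 0.00545). Neither passed the test described next, and their Cy3 differences were -0.60 and -0.53. Its dimmer probes had -0.15 and -0.58.

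A gene was called when its probe had an adjusted p under 0.005 and a mean log2 intensity above 6. Of 16132 genes tested, 444 were called (2.75%), of which 336 were higher in mutant cells (2.08% of those tested) and 108 were lower (0.669%). All 444 differed by more than 2-fold, and 49 of the higher and 10 of the lower genes by more than 8-fold. The median log2 ratio was 1.81 among the higher and -1.92 among the lower genes. The ratio of 14 called genes came from 1 array, because the other spot was marked as an outlier, and the remaining 430 had the same sign on both arrays. The calls were made on these same 2 arrays, so equal signs follow largely from the selection and are no separate check. Fitted on their own, without the treatment arrays in the spread, these 2 arrays gave 72 called genes. Of all 14488 genes with a ratio on both arrays, 37.8% were above 0 on both and 31.8% below. The number of calls depended strongly on the processing, from 3 to 2695 genes, as given under the processing below.

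**Figure D1:**
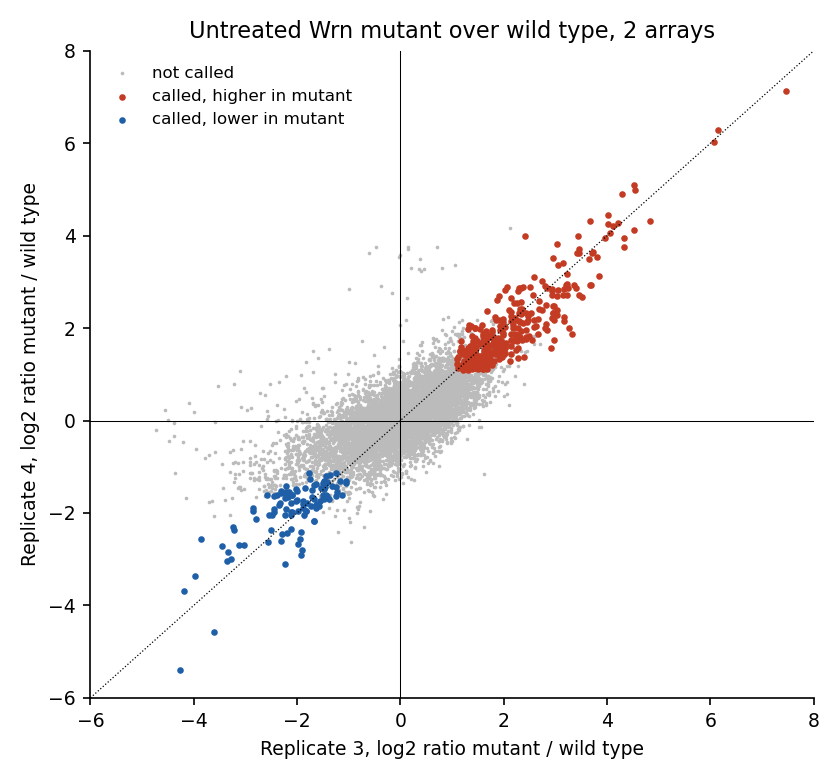
Log2 ratio of untreated mutant over untreated wild type cells on replicate 3 (x axis) and replicate 4 (y axis) for 7743 genes above the intensity threshold. Each point is 1 gene, grey where not called, red where called higher (326 genes) and blue where called lower (104 genes) in mutant cells. The called genes lie near the dotted line of equal values, and 14 called genes with 1 array are not drawn.

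The Cy3 channels of the other arrays gave the same direction for nearly all called genes, in other cultures and in 1 dye. On wild type array 2, 9368 spots were marked as outliers in either dye, against 1173, 166 and 3661 on the other treatment arrays. Before normalization the median Cy3 signal was 227 and 302 on the wild type and 145 and 140 on the mutant arrays. Genotype and array brightness thus cannot be told apart there. Of 334 higher genes with a Cy3 difference 333 had the same sign there, and of 103 lower genes 102. All 4 Cy3 values were present for 254 higher genes, and in 239 of them both mutant cultures lay above both wild type cultures, against a background of 21.6% of all genes. Among 63 lower genes with 4 values, both mutant cultures lay below both wild type cultures in 62, against a background of 23%. No called gene had the cultures apart in the opposite direction. As a test on its own, with 2 cultures against 2, the Cy3 comparison called 17 of 15751 genes at an adjusted p under 0.05 (0.108%), 11 higher (0.0698%) and 6 lower (0.0381%), and 16 of the 17 were also called on the ratio arrays. The remaining gene was Ddit3.

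Adding the Cy3 channel of replicates 3 and 4 as 2 more wild type cultures, a comparison chosen after the data were seen, raised the number of calls. With 4 wild type and 2 mutant cultures, limma called 383 higher (2.38%) and 266 lower (1.65%) genes of 16081, together 4.04%, and 276 of these 649 were among the 444. Both mutant cultures lay above all 4 wild type cultures in 236 of 251 higher genes with 6 values, against 18.6% of all genes. They lay below all 4 in 58 of 63 lower genes, against 16.2%. The 2 added Cy3 signals are also the wild type side of the ratios by which the 444 genes were called. The overlap with the 444 and both counts of separated cultures are thus partly built in and are no separate check.

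**Figure D2:**
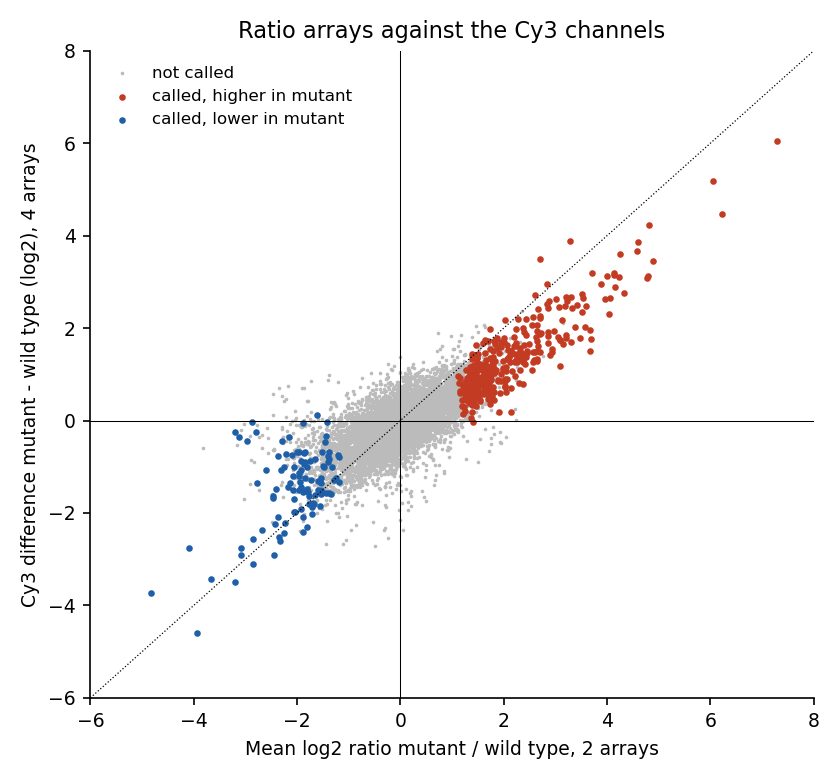
Mean log2 ratio of mutant over wild type on the 2 ratio arrays (x axis) against the Cy3 difference, mutant minus wild type, in the untreated channels of the 4 other arrays (y axis, log2), for 8438 genes above the intensity threshold. Points are genes, coloured as called higher (red), lower (blue) or not called (grey). Nearly all called genes fall on the same side of 0 in both, and the few lower genes near a Cy3 difference of 0 include Nppb and Gucy1b1.

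The largest ratio was that of Plac8, a small cysteine-rich protein first described in placenta. Mutant cells exceeded wild type cells by a log2 of 7.45 on replicate 3 and 7.12 on replicate 4, a mean of 7.29 (SE 0.20; limma adjusted p = 8.37e-05), or 156-fold. In the Cy3 channels, Plac8 stood at 6.02 and 6.54 in the wild type cultures and at 12.03 and 12.63 in the mutant cultures. The wild type level was thus near the floor, and the genotypes did not overlap. The size of the fold depends on the background correction, since the mean log2 ratio of Plac8 was 6.16 with normexp background correction. Olfm1, a secreted glycoprotein best known from neurons, followed with 6.15 and 6.29 (mean 6.22, SE 0.18), and its Cy3 level was 6.53 and 6.30 in wild type against 10.73 and 11.03 in mutant cultures. Crip2, a LIM domain protein, had 6.07 and 6.02 on the arrays. Plac8 and Olfm1 were each represented by 1 probe.

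Among genes with a ratio on both arrays, Erdr1, Ripk3, Fmo2 and Mgp came next. Ripk3, the kinase that starts necroptosis, had a mean log2 ratio of 4.77 (SE 0.20). Its Cy3 level was 6.87 and 6.84 in wild type and 9.94 in the 1 mutant culture with a value. Mgp, matrix Gla protein, an inhibitor of calcification, was bright in both genotypes and had ratios of 4.83 and 4.32 (mean 4.58). The flavin mono-oxygenase Fmo2 had 4.29 and 4.89, and its second probe above the threshold gave a mean of 3.07. Erdr1 had a mean of 4.81, but a further probe of the gene had -1.26 on 1 array and was not called, so the probes disagreed. Niban1 (mean 4.32), Hebp2 (4.16), Fibin (4.14), Dhrs3 (4.14) and Islr (4.06) completed the higher genes outside the groups below. Dhrs3, which reduces retinal and so lowers retinoic acid supply, was also called by its other probe above the threshold, at 4.42. In Cy3 the mutant cultures of Niban1, Hebp2, Fibin, Dhrs3 and Islr all lay above the wild type cultures.

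Among the lower genes, Mcpt8 had the largest ratio. It encodes a serine protease of basophils and mast cell relatives. The log2 ratio was -4.27 on replicate 3 and -5.39 on replicate 4 (mean -4.83, SE 0.28; limma adjusted p = 0.000543), and Cy3 gave 10.98 and 10.48 in wild type against 7.13 and 6.85 in mutant cultures. On 1 of the 2 arrays the mutant signal did not clear background. The mast cell markers Cpa3, Ms4a2 and Tpsb2 had mean log2 intensities, over both dyes, of 4.53, 3.89 and 5.24. Mcpt8 was the 1 called gene of 15 mast cell and basophil markers, of which 2 lay above the intensity threshold. Of the 11 markers with a ratio on both arrays, 5 were below 0 on both and 1 above. Over all genes these shares were 31.8% and 37.8%. The list median was -0.09. Slc38a4, an amino acid transporter that is imprinted in mice, had ratios of -3.60 and -4.57. By this probe, whose mutant signal cleared background on neither array, it was at least 10.6-fold lower (limma adjusted p = 0.000543). A second, dimmer probe of Slc38a4, below the intensity threshold, had -0.84 (adjusted p = 0.0166). The nuclease gene Fan1, chosen after its values were seen, was at least 4.26-fold lower by its 1 probe. For Ankrd27 the dim called probe gave at least 6.02-fold, but the gene's brighter probe had a ratio of 0.18 (adjusted p = 0.464), so the probes disagreed.

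The other genes among the 15 lowest with a ratio on both arrays had varied roles. Ptn, the heparin-binding growth factor pleiotrophin, had ratios of -4.20 and -3.69 (mean -3.94). Ptgis, prostacyclin synthase, had -3.97 and -3.36, and its Cy3 difference was -3.42 (adjusted p = 0.0259). Ctla2a, a cysteine protease inhibitor, had -3.36 and -3.03 with Cy3 levels of 12.36 and 12.04 against 8.55 and 8.89. Ptgis and Ctla2a did not overlap between the genotypes in Cy3, while Ptn had 1 Cy3 value per genotype. Il1rl1, the receptor of interleukin 33, had a mean of -3.14 and was called by a second probe at -2.05. Ltbp1, which stores latent TGF-beta in the matrix, had -3.09, though its second probe above the threshold had -0.93 (adjusted p = 0.0163) and was not called. Ddah1 (-2.86), which breaks down inhibitors of nitric oxide synthesis, Aebp1 (-2.91) and Crmp1 (-2.67) were also in this set.

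Some large negative ratios had a Cy3 difference near 0. Nppb, which encodes brain natriuretic peptide, had log2 ratios of -3.86 and -2.56 (mean -3.21, SE 0.36; adjusted p = 0.0031). Its Cy3 level was 11.30 and 11.17 in wild type and 10.82 and 11.14 in mutant cultures, a difference of -0.25 (adjusted p = 0.744). Gucy1b1, a subunit of soluble guanylate cyclase, had a ratio of -2.80 and a Cy3 difference of -0.26. Dimmer probes of both genes, below the intensity threshold, were above 0 in their ratio: 0.39 for Nppb, and 0.19 and 0.24 for Gucy1b1. For Myoc (ratio -2.60) and Ankrd27 (-2.77) the Cy3 difference was smaller than the ratio, at -1.07 and -1.36. Of the called genes with a Cy3 value, 12 of 103 lower and 25 of 334 higher genes had a Cy3 difference under 0.5 in size or of the other sign. These included Fgf2 (ratio -1.43, Cy3 difference -0.04), Ccr10 (-1.89 and -0.06) and Krt18 (-1.45 and -0.34). Whether the dye of these probes sets their ratios was not tested.

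**Figure D3:**
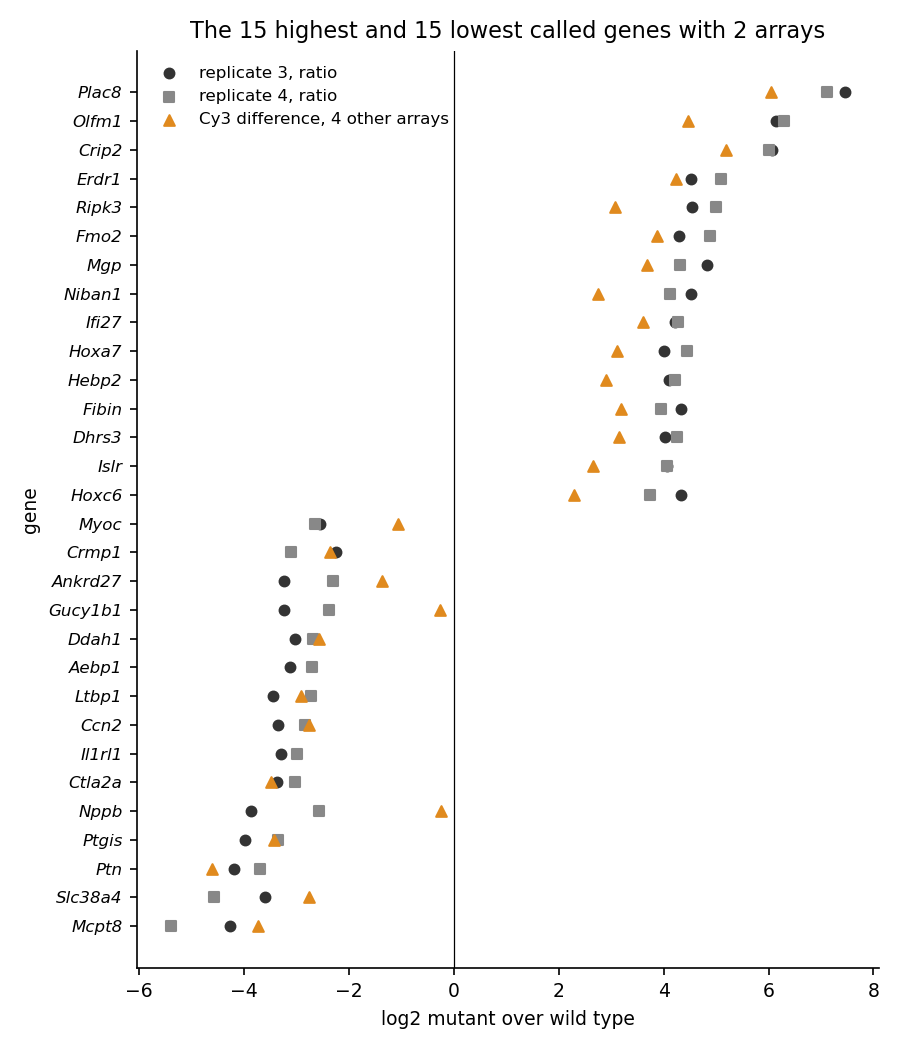
Log2 ratio of mutant over wild type on replicate 3 (circles) and replicate 4 (squares), and the Cy3 difference in the 4 other arrays (triangles), for the 15 highest and 15 lowest called genes with a ratio on both arrays, 1 gene per line. Plac8 stands at 7.45 and 7.12, and the triangles of Nppb and Gucy1b1 lie near 0 while their ratios do not. Il1rl1 and Aebp1 have no triangle because their wild type Cy3 spots were left out.

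Several genes of the ATF4 pathway were higher in mutant cells. Of 21 measured genes of this pathway and of endoplasmic reticulum stress 6 were called higher (28.6%, against 2.08% of all genes) and 0 lower. The calls fell to 1 with normexp background correction and to 1 when the 2 arrays were fitted on their own. The median log2 ratio was 0.61 over all members, against 0.03 for all genes tested, and 1.45 over the 17 members above the intensity threshold, against 0.04. The list was not higher throughout: its median Cy3 difference was -0.05, as for all genes tested. Of 11 members with 4 Cy3 values, both mutant cultures lay above both wild type cultures in 5 and below in 2. Over all genes these shares were 21.6% and 23%. Trib3, a pseudokinase that restrains ATF4 and AKT, had 4.89 on the 1 array with a value, and 5.07 over both arrays with outlier spots kept. Its Cy3 level was 6.60 and 6.97 in wild type and 10.23 in the mutant culture measured. Chac1, which degrades glutathione inside the cell, had 2.62 and 2.05, with Cy3 at 7.87 and 7.87 against 9.18 and 9.34. Atf5, a transcription factor translated under stress, had 1.68 and 2.37, and Cy3 gave 11.52 and 11.04 against 13.51 and 13.38. Nupr1 (2.40), a stress-induced chromatin protein, Ddit4 (2.38), an inhibitor of mTORC1, and Vldlr (2.56), a lipoprotein receptor, were also called.

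Ddit3, the CHOP transcription factor downstream of ATF4, had a ratio of 2.35 on 1 array (adjusted p = 0.0061) and was not called there. Its Cy3 level was 9.79 and 9.69 in wild type and 12.02 and 12.20 in mutant cultures, a difference of 2.37 that was called (limma adjusted p = 0.0484). Asns, asparagine synthetase, had 1.68 and 1.23 (adjusted p = 0.0118), and Herpud1 had 1.49 (adjusted p = 0.0061). Genes of the unfolded protein response that depend less on ATF4 gave other values: the chaperone Hspa5 had -0.24, and Xbp1 had -0.62 and -0.53 (adjusted p = 0.0548). Atf4 itself had 0.61 on 1 array (adjusted p = 0.203). Enzymes of proline and alanine synthesis, which the same pathway can induce, were among the called genes, with Pycr1 at 1.63, Gpt2 at 1.60 and Aldh18a1 at 1.47. They were 3 of 29 genes of amino acid and one-carbon synthesis (10.3%, against 2.08% of all genes), of which 0 were called lower. Of 16 aminoacyl-tRNA synthetases 0 were called, against 2.75% of all genes. Their median log2 ratio was 0.44, with 0.10 on replicate 3 and 0.65 on replicate 4. The median Cy3 difference was 0.05. With outlier spots kept 4 were called higher and 0 lower.

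ATF4 binds composite sites of the form TGATGNAA with C/EBP partners, and the promoters of called members are shown. These members share a direction because they were picked as called. The list was drawn up from genes of this pathway, so the motif counts below follow partly from membership and are no separate check. In the RefSeq promoter table (GRCm38.p6, 300 bases around a start), TGATGNAA was looked for on both strands. It was found for 4 of the 6 called members and for 8 of the 20 list members with an entry. Counted in the same way, by gene, it was found for 4.51% of all 27025 genes, and by promoter in 3.97% of all 32851 promoters. In the sequences, written 5′ to 3′ on the strand of the gene, the match is in capitals and reads as its reverse complement. The match starts at -193 from the start of Chac1 (chr2:119350992-119351291, plus strand), at -110 for Nupr1 (chr7:126625421-126625720, minus strand) and at -200 for 1 of 2 promoters of Vldlr (chr19:27216770-27217069, plus strand).
Chac1: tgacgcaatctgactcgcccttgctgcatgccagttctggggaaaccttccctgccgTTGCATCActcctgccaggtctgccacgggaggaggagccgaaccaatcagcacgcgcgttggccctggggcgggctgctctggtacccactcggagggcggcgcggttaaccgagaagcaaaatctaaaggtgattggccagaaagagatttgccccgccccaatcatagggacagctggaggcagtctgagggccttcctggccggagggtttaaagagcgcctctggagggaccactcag
Nupr1: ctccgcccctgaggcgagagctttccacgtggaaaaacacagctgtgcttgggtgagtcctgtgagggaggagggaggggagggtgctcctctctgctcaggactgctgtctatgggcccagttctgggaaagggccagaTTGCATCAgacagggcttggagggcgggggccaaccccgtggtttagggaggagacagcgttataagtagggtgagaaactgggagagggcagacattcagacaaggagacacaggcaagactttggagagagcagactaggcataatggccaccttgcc
Vldlr: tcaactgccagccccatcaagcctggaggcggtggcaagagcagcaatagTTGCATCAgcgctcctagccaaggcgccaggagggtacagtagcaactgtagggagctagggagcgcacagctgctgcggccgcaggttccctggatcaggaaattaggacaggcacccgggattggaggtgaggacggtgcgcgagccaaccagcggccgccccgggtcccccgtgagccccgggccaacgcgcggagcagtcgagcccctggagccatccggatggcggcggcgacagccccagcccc
Trib3 held a match at 14 bases past its start, and no match was found in these windows of Ddit4 and Atf5. A match is a description of letters and not of binding.

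Interferon-stimulated genes were called higher in 6 of 51 cases (11.8%, against 2.08% of all genes) and lower in 0. With normexp 2 were called, and 1 when the 2 arrays were fitted on their own. The median log2 ratio was 0.56 over all members and 0.68 over the 24 above the intensity threshold, and the median Cy3 difference was 0.24. Ifi27, a small mitochondrial and nuclear membrane protein, had 4.21 and 4.28, and its Cy3 level was 7.97 and 8.24 in wild type against 11.71 in the mutant culture measured. Ifit3 (2.40), an antiviral RNA-response protein, Ifi204 (2.31) and Ifi202b (2.24), members of the p200 family of DNA-binding proteins, Ifitm3 (1.63), which blocks virus entry, and the transcription factor Irf1 (1.62) were also called. The group was not uniform, since Ifit2 had -1.97 and -1.07 (adjusted p = 0.00825) and the immunoproteasome subunit Psmb9 had -1.99 (adjusted p = 0.00911). Of 3 Ifi204 probes above the threshold, 1 had 0.45 (adjusted p = 0.149) and was not called. The p200 genes are similar in sequence, so a probe may also measure RNA of a related gene. Chemokines shared the direction in part: Ccl2 (2.83) and Ccl7 (2.57), which attract monocytes, and Cx3cl1 (2.14) were higher, while Cxcl12 was lower by both of its probes above the threshold (-1.43 and -3.06). Among 22 complement genes, C1s1 (2.48) and Cd59a (1.46) were higher (9.09%) and 0 were lower.

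Hox genes differed in both directions. Hox proteins encode position along the body and limbs. Of 37 measured, 4 were called higher (10.8%, against 2.08% of all genes) and 1 lower (2.70%, against 0.669%), with a median log2 ratio of 0.18. In Cy3, both mutant cultures lay above both wild type cultures in 12 of 27 Hox genes with 4 values, and below in 3. Over all genes these shares were 21.6% and 23%. Hoxa7 had log2 ratios of 4.01 and 4.45 (mean 4.23, SE 0.17), and Cy3 gave 6.54 and 6.53 in wild type against 9.74 and 9.56 in mutant cultures. Hoxc6 had 4.33 and 3.75, Hoxc8 had 3.14 and 3.42, and Hoxc9 had 1.16 and 1.51. In wild type cultures Hoxc8 lay at the floor of Cy3, at 6.17 and 6.16, while the mutant culture measured had 10.05. The called lower member was Hoxd9, with -2.12 and -1.98, and its second probe above the threshold had -1.02 (adjusted p = 0.017).

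Dimmer Hox genes pointed both ways as well. Hoxa5 had 3.02 and 3.58 and Hoxd4 had -2.46 and -3.07, and both passed the adjusted p but not the intensity threshold. Hoxa13, which marks the far end of the limb and the genital region, had -2.88 and -1.13 (adjusted p = 0.0348), with Cy3 at 11.03 and 13.55 in wild type and 10.31 in the mutant culture measured. Hoxa9, Hoxa10 and Hoxc10, close neighbours in the clusters, had -0.06, -0.04 and 0.18. Other patterning factors gave 1 higher gene, Foxf2 (1.74), and 1 lower gene, Hand2 (-2.04), of 142. That is 0.704% in each direction, against 2.08% higher and 0.669% lower over all genes. A second probe of Hand2 above the threshold had -1.60 (limma adjusted p = 0.0051) and was not called. Hand2 directs limb and heart development.

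The matrix showed large changes within a set of genes that as a whole was centred near 0. Of 47 matricellular and elastic fibre genes, 6 were higher (12.8%, against 2.08% of all genes) and 2 lower (4.26%, against 0.669%), with a median of 0.06. With normexp 1 was called higher and 0 lower. The fibroblast markers given above, which include Dcn, were also mostly above 0, and their part in these values was not tested. The small leucine-rich proteoglycans Aspn (4.79, 1 array) and Prelp (3.45 and 2.73), which bind collagen, were higher, and so was decorin (Dcn), with 3.02 and 2.39. For Dcn, Cy3 gave 11.77 and 10.84 in wild type against 13.21 and 13.93 in mutant cultures. Tgfbi (3.88, 1 array), Sparcl1 (2.65) and Matn2 (2.07) were also higher. With outlier spots kept, Aspn had 4.42 and Tgfbi 3.47 over both arrays. The glycoprotein tenascin C, Tnc, had -2.79 and -2.14, and fibulin 2, Fbln2, had -2.11 and -1.62. Of 37 collagen chains 1 was called higher (2.70%), Col6a1 (2.35 and 2.41).

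Proteases and their inhibitors moved both ways. The stromelysin Mmp11 had 3.46 and 3.71, and Adam23 and Adam19 had means of 2.69 and 1.39. The inhibitor Timp1 had -2.44 and -1.91 and was lower by all 3 of its probes above the threshold, and Timp3 had -1.39. A second probe of Adam10 above the threshold had -0.90 (adjusted p = 0.044) and was not called. The called probes of Adam10 (-2.32) and Adam12 (-1.92) had a mutant signal that cleared background on 1 of 2 arrays. In total 3 of 67 were higher (4.48%, against 2.08% of all genes) and 4 lower (5.97%, against 0.669%). The integrin subunit Itgav, a receptor for vitronectin and for latent TGF-beta, was lower by both probes above the threshold, with -2.13 and -1.73.

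Some growth factor genes were lower in mutant cells. Of 47 growth factors and receptors of the FGF, PDGF, VEGF, HGF, EGF and CCN families 4 were called lower (8.51%, against 0.669% of all genes) and 0 higher (against 2.08%). With normexp 2 were called lower and 0 higher, and with outlier spots kept 5 lower and 1 higher. Ccn2, connective tissue growth factor, had -3.35 and -2.84. Fgf7 had -1.55 and -1.74, with Cy3 at 10.39 and 10.61 in wild type against 8.52 and 9.23 in mutant cultures. Hbegf had -2.17 and -1.66, and Fgf2 is given above. The median was -0.14 over all members. Over the 21 above the threshold it was -0.79, and -0.25 with outlier spots kept. In the TGF-beta family Ltbp1 and Ltbp2 (-1.81) were lower and Fstl1 (1.60) higher of 56, or 3.57% and 1.79%. In the Wnt pathway the receptor Fzd1 (-1.63 and -1.90) and the inhibitor Sfrp1 (-2.51 and -2.37) were lower of 50, or 4%. For Sfrp1, Cy3 gave 9.74 and 9.43 in wild type and 6.69 and 6.67 in mutant cultures (adjusted p = 0.0298).

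Genes of cell division had small differences that pointed mostly one way. Of 34 genes of DNA replication 0 were called higher and 1 lower (2.94%, against 0.669% of all genes). It was the ribonucleotide reductase subunit Rrm2 (-1.51 and -1.68). Of 37 genes of mitosis 0 were higher and 2 lower (5.41%), the spindle checkpoint kinase Ttk (-1.53) and the cytokinesis protein Anln (-1.94). A second probe of Anln above the threshold had -1.13 (limma adjusted p = 0.00866), with a Cy3 difference of -0.13, and was not called. The median was -0.36 over the replication genes and -0.51 over the mitosis genes above the threshold. Under median centring, which moves the median of all genes above the threshold to 0.33, the medians were -0.04 and -0.18, and relative to all such genes they stayed between -0.36 and -0.40 and between -0.50 and -0.62 under 5 scalings. Both arrays were below 0 in 26 of 31 replication genes and 20 of 30 mitosis genes with 2 values, against 31.8% of all genes. In Cy3, both mutant cultures lay below both wild type cultures in 13 of 20 replication genes and 15 of 17 mitosis genes with 4 values. The share over all genes was 23%. Both mutant cultures lay above both wild type cultures in 0 of either list, against 21.6% of all genes. Single genes were mostly short of the threshold, such as the replication clamp Pcna (-0.69, adjusted p = 0.0402), the survivin gene Birc5 (-0.91, adjusted p = 0.0172) and the cyclin gene Ccnb1 (-0.68, adjusted p = 0.0286).

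Cell cycle inhibitors gave 2 genes called higher of 21 in the list of senescence genes (9.52%, against 2.08% of all genes). Cdkn2a, which encodes p16INK4a and p19ARF, had 2.14 and 2.36, and Cy3 gave 6.95 and 6.76 in wild type against 7.78 and 8.61 in mutant cultures. The array does not tell which of its transcripts was higher. Igfbp7 had 1.97 and 2.05. The p53 target Cdkn1a had 0.20 and 0.27 (adjusted p = 0.334), and of 28 p53 targets 1 was called higher, Ddit4 (3.57%). Among 29 RecQ helicases and proteins that work with WRN, 1 was called lower (3.45%, against 0.669% of all genes). It was the nuclease subunit Mre11a, with -2.15 and -1.55. A dimmer probe of Mre11a, below the intensity threshold, had -0.59 (limma adjusted p = 0.0468). In Cy3, Mre11a stood at 13.07 and 14.33 in wild type and at 12.46 in the mutant culture measured.

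Genes of glutathione, peroxide and mitochondria, the systems in which these mutant cells are studied, gave 4 called genes in the lists below. Of 16 genes of glutathione synthesis and turnover 1 was called higher, Chac1 (6.25%, against 2.08% of all genes). The subunits of the rate-limiting synthetic enzyme, Gclc and Gclm, had ratios of -0.60 (adjusted p = 0.0337) and -1.37 (adjusted p = 0.0121). Glutathione S-transferases gave 2 of 23 higher (8.70%), Gstm1 (2.43 and 1.96) and Mgst3 (1.95 and 2.03). Enzymes that remove peroxide or superoxide gave 0 of 34, with catalase (Cat) at 0.57 and 0.56 (adjusted p = 0.063) and Sod2 at 0.69 (adjusted p = 0.0521). The respiratory chain gave 0 of 77 with a median of 0.13, and mitochondrial ribosomal proteins 0 of 75 with a median of 0.11. The metal-binding metallothionein Mt2 had 3.45 and 3.62, and Mt1 had 2.59 and 1.66 (adjusted p = 0.00507).

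**Figure D4:**
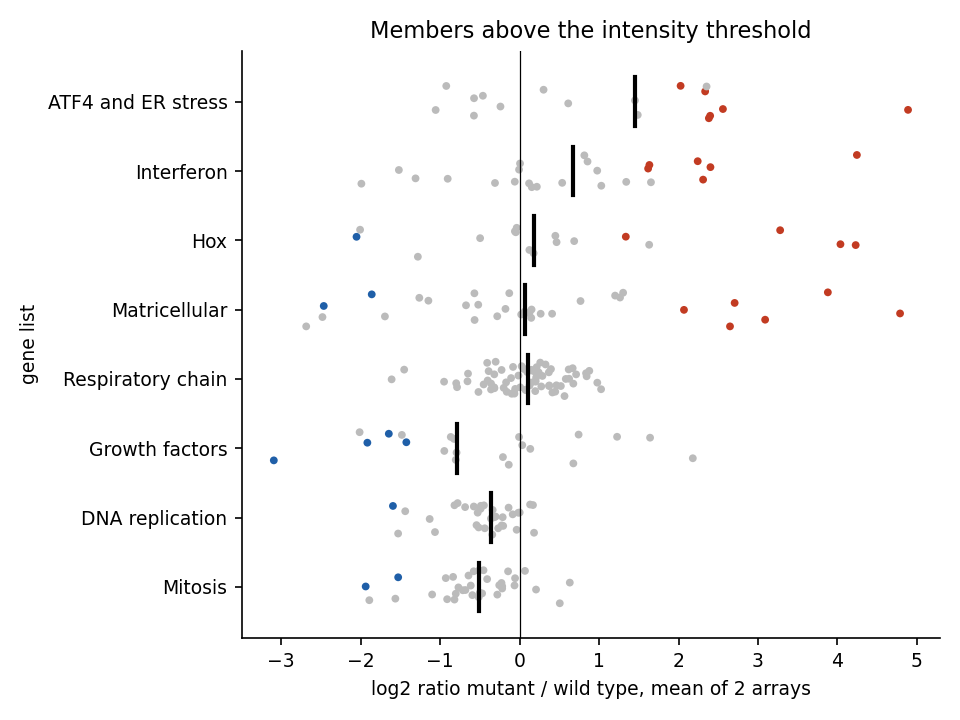
Log2 ratio of mutant over wild type, mean of 2 arrays, for the members of 8 gene lists that lie above the intensity threshold (x axis, each point 1 gene, with scatter in y for display). Red points were called higher, blue points lower, and black bars are medians. The medians run from 1.45 for ATF4 and endoplasmic reticulum stress genes to -0.79 for growth factors, and the respiratory chain has no called gene. With dimmer members included, these medians are 0.61 and -0.14. With outlier spots kept, the growth factor median above the threshold is -0.25.

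Calls in further lists stand against 2.08% higher and 0.669% lower over all genes. Chaperones gave 4 higher (4.21%) and 1 lower (1.05%) of 95, among them Hspb1 (1.34) and Hspa4l (-1.20). Glycolysis gave Pdk1 (2.08), which holds pyruvate back from the mitochondrion, and Eno3 (-1.88) of 21, or 4.76% in each direction. Fatty acid metabolism gave Pparg (2.04), the regulator of fat cell formation, Elovl1 (1.71) and Cpt2 (1.66) of 31, or 9.68%. Purine metabolism gave Xdh (1.64, with 0.96 for its second probe, not called) and Rrm2 of 24, or 4.17% in each direction. Among 28 imprinted genes, Igf2 (1.69) and Gtl2 (1.41) were higher along with Dcn, and Slc38a4 was lower (10.7% and 3.57%). Their other probes above the threshold were not called, with 1.19 for Igf2, and -0.14 and 0.55 for Gtl2. Among regulators of G-protein signalling Rgs2 (2.85) and Gng2 (1.40, with 0.44 for its second probe) were higher of 64 (3.13%). Of 202 non-olfactory receptors 3 were higher (1.49%), led by Tacr1 (1.57), and 2 lower (0.99%). The ephrins Efnb2 (-1.53) and Efna5 (-1.92) were lower, 3.28% of the 61 genes of that guidance list, and 0 were higher. A second probe of Efnb2 above the threshold had -0.91 on 1 array and was not called. Casp9 (1.67) was higher beside Ripk3 among 37 cell death genes (5.41%). The early factor Egr3 had 2.22, while its second probe had -0.66.

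The ratios also differed between chromosomes, a pattern looked for after the data were seen. Genes were placed by the RefSeq table of GRCm38.p6 and those above the intensity threshold were kept. The median log2 ratio was 0.40 over 497 genes of chromosome 4, 0.37 over 268 genes of chromosome 16, 0.31 over 430 genes of chromosome 17 and 0.28 over 415 genes of chromosome 10. It was -0.25 over 525 genes of chromosome 5, -0.20 over 301 genes of chromosome 14 and -0.14 over 481 genes of chromosome 9. For all genes it was 0.04. Under median centring, where all genes had a median of 0.33, chromosomes 5, 14 and 9 had 0.02, 0.03 and 0.15, so these were lower relative to all genes and not below 0. Relative to all genes, these 7 chromosomes kept their direction with normexp, with outlier spots kept, under median centring and in Feature Extraction's log ratio. On chromosome 4, 71.0% of genes had a ratio above 0, and on chromosome 5, 32.2%, against 52.4% of all.

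The same chromosomes stood apart on each array and in the Cy3 cultures. Relative to all genes, chromosome 4 had 0.37 on replicate 3, 0.36 on replicate 4 and 0.26 in Cy3, and chromosome 5 had -0.32, -0.31 and -0.25. Chromosome 10 had 0.20, 0.35 and 0.30, and chromosome 14 had -0.23, -0.28 and -0.25. Chromosome 16 had 0.33, 0.26 and 0.19, and chromosome 17 had 0.21, 0.31 and 0.21. Across the 20 chromosomes the medians of the ratio arrays and of the Cy3 difference correlated with r = 0.961, given as a description over chromosomes. Between cultures of 1 genotype the chromosomes lay close together: the difference of the 2 wild type cultures ran from -0.11 to 0.08 relative to all genes, and that of the 2 mutant cultures from -0.11 to 0.07.

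The shifts ran along whole chromosomes. When the genes of a chromosome were divided by position into 4 stretches of equal gene number, the medians along chromosome 4 were 0.47, 0.51, 0.27 and 0.38. Those of chromosome 17 were 0.34, 0.44, 0.16 and 0.38, and those of chromosome 5 were -0.39, -0.26, -0.19 and -0.21. Chromosome 10 had 0.36, 0.23, 0.24 and 0.54. All 4 stretches of these chromosomes, and of chromosomes 16, 14 and 9, had the sign of the whole. Chromosome 8, which carries Wrn in the mouse, had a median of 0.06. Calls were spread over all 20 chromosomes, from 2.67% of genes above the threshold on chromosome 5 (14 genes) to 9.16% on chromosome 10 (38 genes, 34 of them higher), against 5.03% of all genes above it. The arrays measured RNA and hold no measure of the DNA of these cells.

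**Figure D5:**
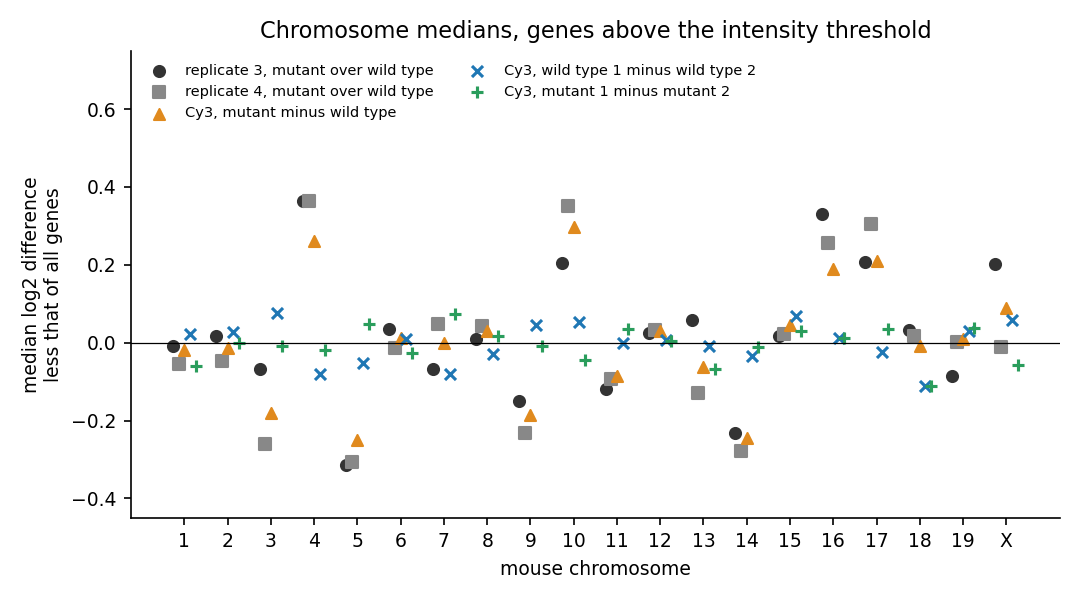
Median log2 difference of the genes above the intensity threshold on each mouse chromosome (x axis), less the median of all such genes (y axis). Circles and squares are mutant over wild type on replicates 3 and 4, triangles the Cy3 difference between genotypes, and crosses and plus signs the differences between 2 cultures of 1 genotype. Chromosomes 4, 10, 16 and 17 lie above 0 and chromosomes 5, 9 and 14 below 0 for all 3 comparisons of genotypes. Chromosomes 3 and 11 also lie below 0 in all 3, and chromosomes 1, 8, 12 and 15 keep 1 sign with shifts of smaller size.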

How the data were processed

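Of the 6 Agilent two-colour 60-mer arrays, the 2 with untreated mutant and wild type RNA were described. The authors deposited mean and local background intensities per spot, and Feature Extraction's log10 ratio. In the authors' series table are log2 ratios, background subtracted and loess normalized (limma, version not given in the sources used here). Software flags, deposited as a score without unit, were used only to leave spots out. The labels name total RNA, the methods cytoplasmic RNA.

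Following the methods, local background was subtracted and ratios were loess normalized within arrays. The methods name no removal of spots; here outlier and control spots were left out and spots of a probe averaged (limma 3.58.1 and data.table version 1.17.8 in R 4.3.3). All 6 arrays were fitted with 1 coefficient per comparison by lmFit and eBayes, with two-sided p-values and Benjamini-Hochberg adjustment over 41099 probes. The fit left 3 residual degrees of freedom and limma added 3.98. A gene was represented by its RefSeq probe of the highest mean intensity, and 15402 of 16369 accessions were named through RefSeq (GRCm38.p6). The Cy3 intensities of 4 arrays were quantile normalized on the log2 scale and fitted by limma. Both genotypes were on each ratio array, so each array's value lies within its own scan; the other arrays were extracted on another day. Named were Wrn, the 15 most changed called genes in each direction with the same sign on both arrays and the brighter dye above background, the 4 most changed called members per list, and bright members of lists with few calls. Members, lists and tests were chosen with earlier results of these data known. On simulated data for the same 6 arrays and 41174 probes, true log2 changes of 1, 2, 3 and 4, each set in 50 probes, were called in 0%, 44%, 88% and 96%. Plots used Python 3.11.15, pandas 2.3.3 and matplotlib 3.10.9.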

Additional observations from a re-analysis of the deposited data

How the results depend on the processing

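Against 444 called genes, the count was 169 with normexp background correction (offset 50), 779 with outlier spots kept, 784 from the authors' series table, 177 with median centring, 3 from Feature Extraction's log ratio, 72 when the 2 arrays were fitted on their own, and 2667 at an adjusted p under 0.05. The share higher was 75.7%, and 89.8% with median centring, 58.1% at an adjusted p under 0.05, 62.5% without replicate 3 and 49.9% without replicate 4, so the excess of higher genes was lost without that array. Leaving out 1 of the 2 arrays gave 1320 (without replicate 3) and 2695 (without replicate 4), each resting on 1 array assumed to vary like the treatment arrays. Without an intensity threshold, with both dyes above background, with a fold change of 2 added, with any probe of a gene, and among genes with a Cy3 difference of 0.5 or more in the same direction (chosen after seeing the data), counts ran from 400 to 592. The labels' dyes turn every sign by construction.

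The Cy3 comparison called 17 genes, 58 with outlier spots kept, 28 with 75th percentile centring, 18 with normexp, 0 at an adjusted p under 0.005 (limma; 1843 genes at an unadjusted p under 0.05), and 649 with all 6 arrays. Leaving out 1 array at a time gave 0 to 1977 genes, with 0 without either mutant culture (limma; 1015 and 1032 at an unadjusted p under 0.05), 1977 without wild type replicate 1 and 469 without wild type replicate 2. The direction check gave r = 0.717 over all probes above the threshold.

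Treatment replicates share only numbers. With the replicate block, 15 genes were called on the ratio arrays and 1 in Cy3. Deviations of same-numbered Cy3 cultures correlated at r = 0.167, and with 2 pairs this does not show pairing.

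Apart from the labels' dyes, no alternative run turned the sign of a named gene. Of 103 named genes, 43 kept their side of the threshold with normexp, 37 on 2 arrays alone, 60 with median centring, 12 with the block, 4 with Feature Extraction's log ratio, 87 of the 100 with a value without replicate 3, and 103 without replicate 4. Short of the threshold without replicate 3 were Fmo2, Slc38a4, Gucy1b1, Ankrd27, Crmp1, Cdkn2a, Krt18, Tacr1, Hoxd9, Egr3, Itgav, Adam10 and Efna5. With normexp the ATF4 list had 1 called gene, the interferon list 2 and the Hox list 4.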
